A study of Mus musculus with 2 samples.

Results

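Neuroendocrine mimetic cells were examined in thymic epithelium of NOD, BALB/c and B6 (C57BL/6) mice. The cells were chosen by their own transcripts: a cell was counted as a member when at least 5 of 10 neuroendocrine genes (Insm1, Chga, Chgb, Scg5, Snap25, Pcsk1n, Stx1a, Rimbp2, Resp18 and Stxbp5l) each had 1 or more unique molecular identifiers (UMIs, 1 per captured RNA molecule). By this rule 96 of the 2527 cells that passed quality filters were members, out of 3447 deposited cell barcodes. The levels of these 10 genes in members, and member levels of other genes against the remaining cells, are therefore descriptions of the choice and were not tested.

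The groups were 2 NOD, 2 BALB/c and 2 B6 mice, all female and 6 weeks old. NOD mice develop autoimmune diabetes spontaneously, whereas BALB/c and B6 mice do not. In all groups the thymus had been depleted of CD45-positive cells and sorted for medullary thymic epithelial cells low in MHC class II and negative for Pdpn and CD104, so every comparison is within that gate. Each mouse carried its own hashtag antibody barcode and all 6 mice were run together in 1 droplet library, so that library preparation was shared and the mouse was the replicate. Of the 96 members, 1 came from NOD mouse 1, 3 from NOD mouse 2, 10 from BALB/c mouse 1, 9 from BALB/c mouse 2, 20 from B6 mouse 1 and 32 from B6 mouse 2. The other 21 had mixed hashtags and no strain. P-values between strains measure the spread between these mice.

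Medullary thymic epithelial cells display proteins of peripheral tissues to developing T cells, and part of this display comes from mimetic cells, which take on the transcriptional programme of a peripheral cell type. Neuroendocrine cells of gut, lung and pancreatic islets store peptide hormones with granins in dense-core granules. They cut the prohormones with dedicated proteases and release the granules on calcium entry through SNARE proteins and synaptotagmins, the machinery that neurons use at synapses. Insm1 is a transcription factor of this lineage, and REST (encoded by Rest) represses many neuronal and neuroendocrine genes in other cells.

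The promoters of 3 granin genes, which encode the granule cargo, are shown because each held a match to the same motif near the start site. The sequences are from RefSeq on GRCm38.p6 and run from 250 bases before to 50 bases after the annotated start. Capitals mark TGACGTNA, a cyclic AMP response element-like sequence, and CAGCTG, an E-box, each searched on both strands. The 2 sequences did not overlap in any of the 3 promoters.
Chga, chr12:102554691-102554990, plus strand: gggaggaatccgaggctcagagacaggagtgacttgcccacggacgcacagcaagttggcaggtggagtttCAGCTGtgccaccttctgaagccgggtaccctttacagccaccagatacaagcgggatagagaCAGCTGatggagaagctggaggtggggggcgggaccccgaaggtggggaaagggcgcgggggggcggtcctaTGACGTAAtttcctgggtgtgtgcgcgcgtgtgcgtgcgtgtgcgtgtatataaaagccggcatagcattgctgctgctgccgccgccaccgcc
Chgb, chr2:132781392-132781691, plus strand: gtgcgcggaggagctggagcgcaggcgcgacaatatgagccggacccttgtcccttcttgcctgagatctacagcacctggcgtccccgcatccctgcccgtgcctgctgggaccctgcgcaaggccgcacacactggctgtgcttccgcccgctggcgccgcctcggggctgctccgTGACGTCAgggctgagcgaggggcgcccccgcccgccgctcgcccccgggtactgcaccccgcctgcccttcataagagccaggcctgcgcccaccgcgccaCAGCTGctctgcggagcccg
Scg2, chr1:79439977-79440276, minus strand: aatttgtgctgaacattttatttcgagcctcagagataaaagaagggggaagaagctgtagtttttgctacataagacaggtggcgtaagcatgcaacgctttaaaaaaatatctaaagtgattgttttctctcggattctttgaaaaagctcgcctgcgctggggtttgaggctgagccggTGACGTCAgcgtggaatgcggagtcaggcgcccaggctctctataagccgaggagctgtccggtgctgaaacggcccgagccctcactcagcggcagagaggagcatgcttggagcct
The TGACGTNA match began 44 bases before the start in Chga, 72 bases before it in Chgb and 68 bases before it in Scg2. It was present in 3 of the 12 granin, granule and selection genes that had a promoter entry, and in 963 of all 32851 RefSeq promoters of the same length (2.93%). CAGCTG was present in 5 of the 12 (Chga, Chgb, Stx1a, Rimbp2 and Resp18), at 2 places in Chga, and in 5355 of all promoters (16.3%). Insm1, Snap25 and Vgf had no entry. These matches describe the sequence and no binding was measured.

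The number of selection genes detected per cell had 1 peak at 0 and a second at 8. It was 0 in 1417 cells, 1 in 652, 2 in 258, 3 in 75 and 4 in 29 cells. Among members it was 5 in 11 cells, 6 in 13, 7 in 21, 8 in 38, 9 in 10 and 10 in 3 cells. Just inside the threshold, the 11 cells with 5 genes had Chga in 10, Scg5 in 9, Stxbp5l in 9 and Chgb in 5, at a median of 20767 UMIs per cell. Just outside it, the 29 cells with 4 genes had Chga in 16, Scg5 in 26, Stxbp5l in 18 and Chgb in 1, at a median of 37755 UMIs.

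**Figure D1:**
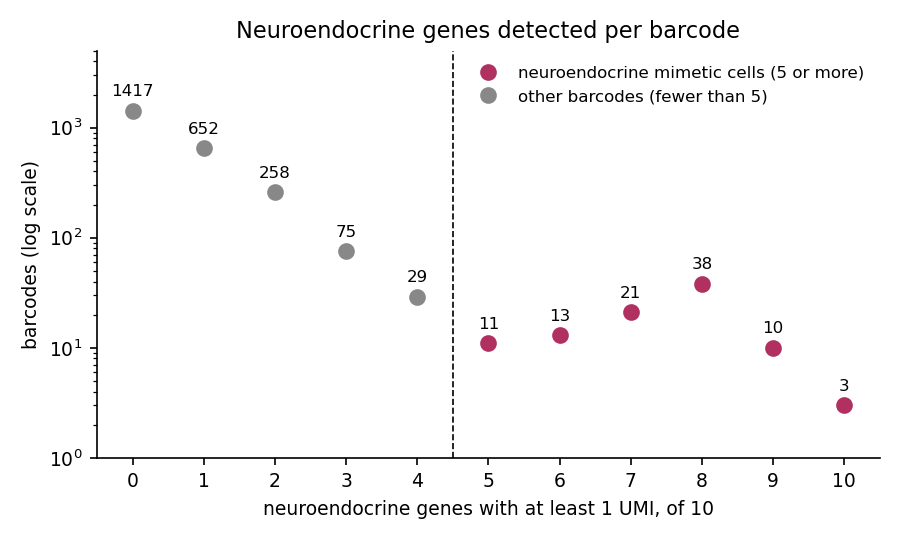
Number of passing cells (vertical axis, log scale) by how many of the 10 selection genes had at least 1 UMI (horizontal axis); the dashed line is the threshold, members are red and other cells grey. Counts decline to 11 cells at 5 genes and climb again to 38 cells at 8 genes.

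The marker genes Insm1, Chga, Chgb, Snap25, Stxbp5l and Resp18 were all used by the rule, so their detection describes the choice and does not check the label. Stxbp5l and Chga were each detected in 91 of 96 members, Insm1 in 89, Snap25 in 84, Resp18 in 76 and Chgb in 69. Epcam, an epithelial surface protein, was detected in 95 members, and Ptprc (CD45) in 6. Of 18 glial and neuronal markers, 13 had a UMI in members, and the list summed to 550 CPM (UMIs scaled to a total of 1000000) in members and 76.7 CPM in other epithelial cells, with 382 CPM of the members' sum from Snap25. Outside Snap25, 5 of these markers were detected in at least 10% of members and 2 of the 5, Syn1 and Gad1, were higher in members in each of 5 mice. The same held for 14.8% of all genes outside the selection genes detected in at least 10% of members. The glial genes Sox10 and Gfap had 0 UMIs and S100b had 2 UMIs in members.

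Depth and free RNA bear on any share of cells. The median was 22490 UMIs in members, 15501 in the 1650 other epithelial cells (Epcam detected, Ptprc not) and 24331.5 in the 648 Ptprc-positive cells. Of these 648 cells, 486 also had an Epcam UMI and 466 had no strain. They are therefore a mixed class and not a clean background. Chgb was detected in 71.9% of members, 0.6% of other epithelial cells and 0.5% of Ptprc-positive cells, and Snap25 in 87.5%, 2.0% and 0.6% of the same classes. With every cell thinned to 4000 UMIs, which left out 2 members, 140 other epithelial and 59 Ptprc-positive cells, Chgb was detected in 48.9% of members, 0.4% of other epithelial cells and 0.0% of Ptprc-positive cells. Insm1 was less exclusive and was detected in 92.7% of members, 13.6% of other epithelial cells and 7.1% of Ptprc-positive cells, and after thinning in 61.7%, 7.1% and 2.5%. Member totals per mouse were 10025 and 56807 UMIs in NOD mice, 228527 and 254388 in BALB/c mice, and 489147 and 659958 in B6 mice.

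Some members carried transcripts of another cell type. At least 5 of 13 tuft cell markers were found in 18 members, and 10 of these 18 had mixed hashtags, against 11 of the other 78 members. Their median was 35331 UMIs, against 20801 UMIs in the other 78. The deepest member, a BALB/c mouse 2 cell of 74151 UMIs, held 1336 Jchain, 5354 Igkc and 3208 Igha UMIs, transcripts of antibody-secreting plasma cells, with 0 Ptprc and 45 Epcam UMIs. The next highest Jchain count in a member was 4 UMIs. This cell supplied 29.1% of all member UMIs of its mouse. Whether such barcodes hold more than 1 cell was not tested. The share per mouse, the strain comparison and the interaction given further on were repeated without the tuft-marked members and without the plasma-type cell.

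Granins and other proteins of the dense-core granule were at high levels in members. Levels are in CPM, with UMIs summed over the cells of a class before scaling. The levels of the selection genes are fixed by the choice of cells, so counts over lists in members against other epithelial cells leave them out. Of 6 granin and granule genes outside the selection genes that were detected in at least 10% of members, 3 were higher in members than in other epithelial cells in each of the 5 mice with at least 3 members (NOD 2 and both BALB/c and B6 mice). The same held for 1778 of all 12027 such genes outside the selection genes, or 14.8%, and 1386 genes were lower in each of the 5 mice. Genes that go together with the selection genes in a cell are also raised by the choice, so these counts are descriptions.

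Chga, chromogranin A, a core protein of the granule and a source of antigenic peptides for diabetogenic T cells in NOD mice, stood at 1072 CPM in members, with 6584 CPM in the 1 member of NOD mouse 1, 1760 CPM in NOD mouse 2, 1934 and 550 CPM in the BALB/c mice, and 687 and 1512 CPM in the B6 mice. In other epithelial cells of the same mice it stood at 6.58 and 10.8 CPM in the NOD mice, 6.91 and 7.27 CPM in the BALB/c mice, and 23.3 and 0.82 CPM in the B6 mice. The strains overlapped among members, and every mouse was higher in members than in its other cells. Over all other epithelial cells Chga was 183 CPM, because 1 cell with no strain held 5596 of the 5836 Chga UMIs (95.9%). That cell had 25033 UMIs of Pth, parathyroid hormone, 21 of Gcm2, a parathyroid transcription factor, and 0 of Chgb, Snap25 and Stxbp5l. With 1 selection gene it was no member.

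Chgb, chromogranin B, a second granin of the granule core, stood at 550 CPM in members and 2.17 CPM in other epithelial cells. Scg2, secretogranin II, the precursor of secretoneurin, stood at 305 CPM in members and 0.44 CPM in other epithelial cells. It was not a selection gene, and 25 of 96 members held it: 14 in subgroup 1 of the subgroups described below, 3 in subgroup 3 and 8 in subgroup 4. Scg2 was 0 CPM in both NOD mice, 245 and 31.4 CPM in the BALB/c mice, and 294 and 550 CPM in the B6 mice, so B6 mouse 2 was the highest and the 4 NOD members had none. Scg3, a granin that helps to sort cargo into granules, stood at 61.8 CPM in members and 0.88 CPM in other epithelial cells. Scg5, the chaperone 7B2 of prohormone convertase 2, stood at 661 CPM in members and 71.9 CPM in other epithelial cells. Resp18, a granule protein of endocrine cells, stood at 867 CPM in members and 18.3 CPM in other epithelial cells. Ptprn2 (phogrin), a granule membrane protein and an autoantigen in type 1 diabetes, was detected in 93 members and stood at 1324 CPM in members and 31.1 CPM in other epithelial cells. Its relative Ptprn (IA-2) stood at 33.2 CPM in members and 1.29 CPM in other epithelial cells. Pcsk1n, which encodes the convertase inhibitor proSAAS and was among the selection genes, was found in 7 members, and 6 of these 7 were in subgroup 1.

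Proteases and enzymes that mature peptide hormones were found in differing numbers of members. Of 8 such genes detected in at least 10% of members, 4 were higher in members in each of the 5 mice. Among all 12027 genes the share was 14.8%. Pam, which amidates the carboxyl end of peptides, was detected in all 96 members and stood at 768 CPM in members and 186 CPM in other epithelial cells. Pcsk1, prohormone convertase 1/3, was detected in 34 members and stood at 80.7 CPM in members and 0.38 CPM in other epithelial cells. Pcsk2, prohormone convertase 2, was found in 10 members, 9 of them in subgroup 1. Cpe, carboxypeptidase E, which trims the cut peptides, stood at 112 CPM in members and 12.6 CPM in other epithelial cells, and was found in 36 members. Thus all members had the amidating enzyme, whereas convertase transcripts were found in a part of them.

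The exocytosis list was broadly represented. Of 33 such genes outside the selection genes detected in at least 10% of members, 20 were higher in each of the 5 mice. The median log2 ratio of the 33 was 2.17, against 0.17 over all 12027 genes, of which 14.8% were higher in each mouse. The selection genes Stxbp5l, Snap25, Rimbp2 and Stx1a also belong to this machinery. Stxbp5l (tomosyn-2), which binds syntaxin and restrains vesicle fusion, stood at 2340 CPM in members and 14.8 CPM in other epithelial cells. It was 499 and 2060 CPM in the NOD mice, 2210 and 613 CPM in the BALB/c mice, and 2774 and 3050 CPM in the B6 mice, with NOD mouse 1, of 1 member, and BALB/c mouse 2 the lowest. Snap25, a SNARE of the plasma membrane, stood at 382 CPM in members and 1.95 CPM in other epithelial cells. Rimbp2, which places calcium channels at release sites, stood at 203 CPM in members and 1.51 CPM in other epithelial cells. Syt1, the calcium sensor synaptotagmin 1, was in all 96 members and stood at 2952 CPM in members and 563 CPM in other epithelial cells. Cplx2, complexin 2, which clamps and primes the SNARE complex, stood at 296 CPM in members and 12.7 CPM in other epithelial cells. Cadps, which primes granules for release, stood at 413 CPM in members and 77.9 CPM in other epithelial cells, and Pclo, a scaffold of the active zone, stood at 433 CPM and 70.2 CPM. Stx1a, syntaxin 1A, the partner of Snap25, had 49 UMIs in 31 members.

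Ion channel genes that give neuroendocrine cells electrical activity were also high. Of 28 detected in at least 10% of members, 15 were higher in each of the 5 mice, against 14.8% of all 12027 genes. The median log2 ratio of the 28 was 2.33, against 0.17 over all 12027 genes. Cacna2d1, an auxiliary subunit of voltage-gated calcium channels, stood at 2529 CPM in members and 24.2 CPM in other epithelial cells. Its level was 0 and 9664 CPM in the NOD mice, 573 and 1333 CPM in the BALB/c mice, and 1995 and 3562 CPM in the B6 mice, so the NOD mice, with 1 and 3 members, were the lowest and the highest. Cacna1a, the pore of the P/Q-type calcium channel, stood at 527 CPM in members and 32.3 CPM in other epithelial cells. Scn3a, a sodium channel pore, stood at 276 CPM in members and 10.9 CPM in other epithelial cells, and Kcnb2, a delayed-rectifier potassium channel, stood at 921 CPM and 105 CPM. Abcc8, the sulfonylurea receptor subunit of the KATP channel, stood at 103 CPM in members and 10.9 CPM in other epithelial cells. Ffar2, a receptor for short-chain fatty acids on gut endocrine cells, was in 54 members at 93.4 CPM, against 0.50 CPM in other epithelial cells.

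Enzymes of monoamine synthesis were partly present. Ddc, aromatic amino acid decarboxylase, stood at 158 CPM in members and 11.4 CPM in other epithelial cells, and Slc18a1, the vesicular monoamine transporter VMAT1, stood at 42.5 CPM and 6.54 CPM. Tph1, which makes the serotonin precursor, had 17 UMIs in 7 members and 0 CPM in other epithelial cells. Th had 3 UMIs in 1 member, and Dbh, which makes noradrenaline, had 0 UMIs in members. Of 6 islet autoantigen genes outside the selection genes detected in at least 10% of members, 5 were higher in each of the 5 mice. This held for 14.8% of all 12027 genes. Gad1, a glutamate decarboxylase, stood at 55.5 CPM in members and 1.67 CPM in other epithelial cells, while Gad2, the form that is the islet autoantigen GAD65, had 1 UMI. Ica1, islet cell autoantigen 1, stood at 252 CPM in members and 21.1 CPM in other epithelial cells. Ins1 had 0 UMIs and Ins2 10 UMIs in 4 members.

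**Figure D2:**
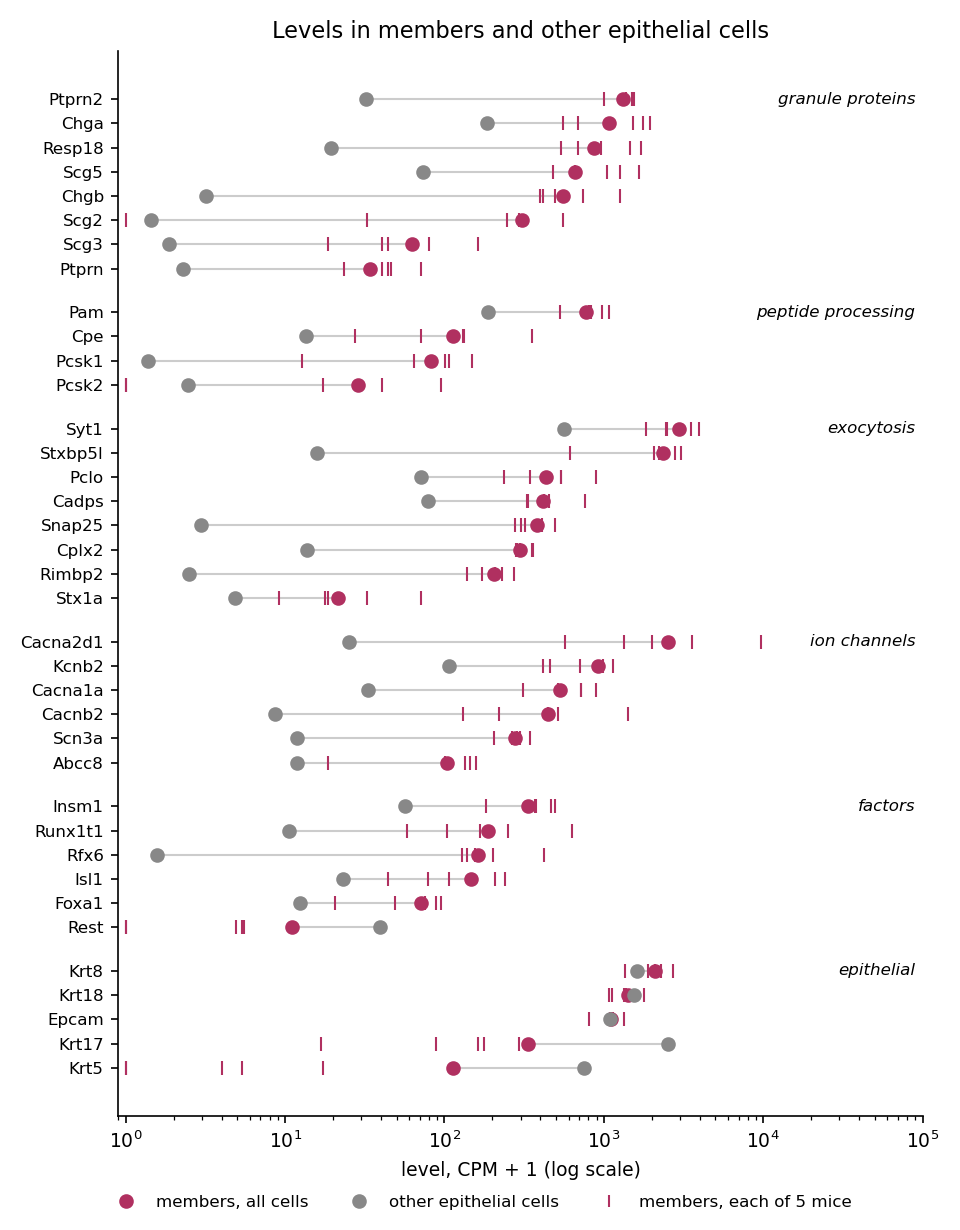
Level of named genes in CPM + 1 (log scale) for all members (red circles), all other epithelial cells (grey circles) and members of each of the 5 mice with at least 3 members (red ticks). Granule, exocytosis and channel genes lie higher in members, Epcam and Krt18 lie at about the same level in both, and Rest, Krt17 and Krt5 lie lower in members.

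Listed transcription factors were found in differing numbers of members. Of 30 factors other than Insm1 detected in at least 10% of members, 12 were higher and 4 lower in members in each of the 5 mice. Over all 12027 genes, 1778 were higher (14.8%) and 1386 lower. Insm1, a zinc-finger factor required for endocrine differentiation and a selection gene, stood at 331 CPM in members and 55.9 CPM in other epithelial cells. Rfx6, a factor of gut and islet endocrine cells, was in 55 members and stood at 161 CPM in members and 0.57 CPM in other epithelial cells. Isl1, an islet factor, was in 39 members at 145 CPM, against 22.1 CPM in other epithelial cells.

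The islet and enteroendocrine factors Neurog3, Neurod1, Nkx2-2, Pax6 and Fev were rare. None of the 5 was found in 70 members, 1 or 2 were found in 21, and at least 3 were found in 5 members, all of subgroup 1. Neurod1 was found in 6 members, and Nkx2-2 in 12 members and in no other epithelial cell.

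Rest, the repressor, was lower in members in each of the 5 mice. Its level was 0 CPM in both NOD mice, 4.4 and 3.9 CPM in the BALB/c mice, and 0 and 4.5 CPM in the B6 mice among members. Among other epithelial cells it was 39.5 and 42.6 CPM in the NOD mice, 46.4 and 42.1 CPM in the BALB/c mice, and 31.5 and 34.4 CPM in the B6 mice. The 2 classes did not overlap. Rest was detected in 13.5% of members, 42.4% of other epithelial cells and 50.9% of Ptprc-positive cells, and after thinning in 2.1%, 15.3% and 17.0%. Of the 13 members with Rest, 8 were in subgroup 3, the one with tuft transcripts.

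Basal keratins were lower in members than in other epithelial cells in each of the 5 mice, whereas simple-epithelial keratins were at comparable levels. Krt8 stood at 2093 CPM in members and 1619 CPM in other epithelial cells, and Krt18 at 1421 CPM and 1553 CPM. Krt5, a basal keratin, stood at 111 CPM in members and 746 CPM in other epithelial cells, and Krt17 at 333 CPM and 2519 CPM. Interferon-stimulated genes were low, at a median log2 ratio of -1.04 over the 30 detected in at least 10% of members. Of these 30, 16 were lower and 2 higher in members in each of the 5 mice. Among all 12027 genes, 1386 were lower and 1778 higher, at a median log2 ratio of 0.17. Ifi27l2a stood at 589 CPM in members and 2461 CPM in other epithelial cells, and Isg15, a ubiquitin-like protein induced by interferon, at 68.1 CPM and 325 CPM.

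Genes outside the selection genes were ranked if they were detected in at least 20% of members and higher in members in each of the 5 mice. The 20 of these with the largest ratio of members over other epithelial cells were Rbp4, A330076H08Rik, Car8, Col8a1, Rfx6, Cacna2d1, A230057D06Rik, Cd177, Ffar2, Ambp, Pcsk1, Speer4c, Cpn1, Elavl4, Cacnb2, Galnt13, 1700016L21Rik, Disp2, Gnao1 and Kif12. Of 37 neuronal adhesion and cytoskeleton genes detected in at least 10% of members, 16 were higher and 4 lower in members in each mouse. Of all 12027 genes, 1778 were higher and 1386 lower. Among the 37 was Elavl4, an RNA-binding protein of neurons, at 153 CPM in members and 1.95 CPM in other epithelial cells. The 20 include a hormone convertase, calcium channel subunits and Gnao1, a G protein of neurons and endocrine cells. Cpn1, a subunit of carboxypeptidase N, stood at 119 CPM in members and 1.29 CPM in other epithelial cells.

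Markers of enterocytes and hepatocytes were also found in members. Of 10 such markers detected in at least 10% of members, 5 were higher in members in each of the 5 mice (Vil1, Cdx1, Lgals4, Muc13 and Cdhr5) and none was lower. Of all 12027 genes, 14.8% were higher in this way. The list summed to 4831 CPM in members and 2008 CPM in other epithelial cells, and Reg3g, an antimicrobial lectin of gut, made up 3771 CPM of the members' sum. Summed over the list, members had 599 and 581 CPM in NOD mice, 420 and 4784 CPM in BALB/c mice and 13041 and 4608 CPM in B6 mice, and a single cell held 57.8% of these UMIs in BALB/c mouse 2 and 56.2% in B6 mouse 1. The list's sums in other epithelial cells were 246 and 358 CPM in NOD mice, 295 and 403 CPM in BALB/c mice and 7018 and 8353 CPM in B6 mice, so members lay below other cells in B6 mouse 2. The part of these markers in the members' other levels was not tested.

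Peptide hormones were each found in a part of the members. Of 63 listed hormone genes, 20 had 0 UMIs in all members, among them Ins1, Ppy, Npy, Vip, Trh, Cartpt and Prl. For each of these, 0 of 96 cells allows a share of up to 3.12% of members with a UMI. At 3 or more UMIs in a cell, 27 hormones were found in at least 1 member. By that measure 24 members had no listed hormone, 17 had 1 and 55 had 2 or more, with at most 6 in a cell. Hormone transcripts were not confined to members: 2 or more listed hormones at 3 or more UMIs were found in 57.3% of members, 21.8% of other epithelial cells and 10.0% of Ptprc-positive cells, and after thinning to 4000 UMIs in 12.8%, 2.25% and 0.340%.

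The hormones found at 3 or more UMIs in the largest numbers of members were Iapp (islet amyloid polypeptide) in 24, Guca2b (uroguanylin) in 22, Agt (angiotensinogen) in 20, Bdnf (a neurotrophin) in 17, Sct (secretin) in 15, Calcb (beta calcitonin gene-related peptide) in 15 and Calca (calcitonin) in 12. Several of these were also frequent outside members. A UMI of Agt was found in 40.6% of members, 11.8% of other epithelial cells and 17.4% of Ptprc-positive cells, and after thinning in 14.9%, 6.7% and 11.9%. For Bdnf these shares were 38.5%, 20.5% and 10.3%, and after thinning 16.0%, 10.4% and 4.8%. For Calcb they were 26.0%, 15.3% and 4.8%, and after thinning 13.8%, 8.3% and 1.5%. For Sct, a UMI was found in 37.5% of members, 18.7% of other epithelial cells and 29.8% of Ptprc-positive cells, and after thinning in 13.8%, 8.8% and 13.6%, so at equal depth members and Ptprc-positive cells had nearly the same share. Iapp was more confined to members. A UMI of it was found in 31.2% of members, 3.8% of other epithelial cells and 2.0% of Ptprc-positive cells. After thinning these shares were 23.4%, 2.2% and 0.5%.

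Some gut hormones were each concentrated in 1 cell. A BALB/c mouse 1 member had 129 UMIs of Gip, the incretin of K cells, together with 39 of Neurod1, 36 of Isl1 and 29 of Sct. A different BALB/c mouse 1 member had 88 UMIs of Pyy, the satiety peptide of L cells. A member with no strain had 186 UMIs of Sst, somatostatin, and also 12 tuft markers. Ghrl, ghrelin of stomach X cells, was at 3 or more UMIs in 7 members. The highest were 159 and 55 UMIs in 2 members with no strain, which also had 8 and 12 tuft markers. A NOD mouse 2 member had 35 Ghrl UMIs and a BALB/c mouse 1 member had 33. The cells with Gip, Pyy and Sst therefore were 3 different cells, of which 2 came from BALB/c mouse 1 and 1 had no strain.

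**Figure D3:**
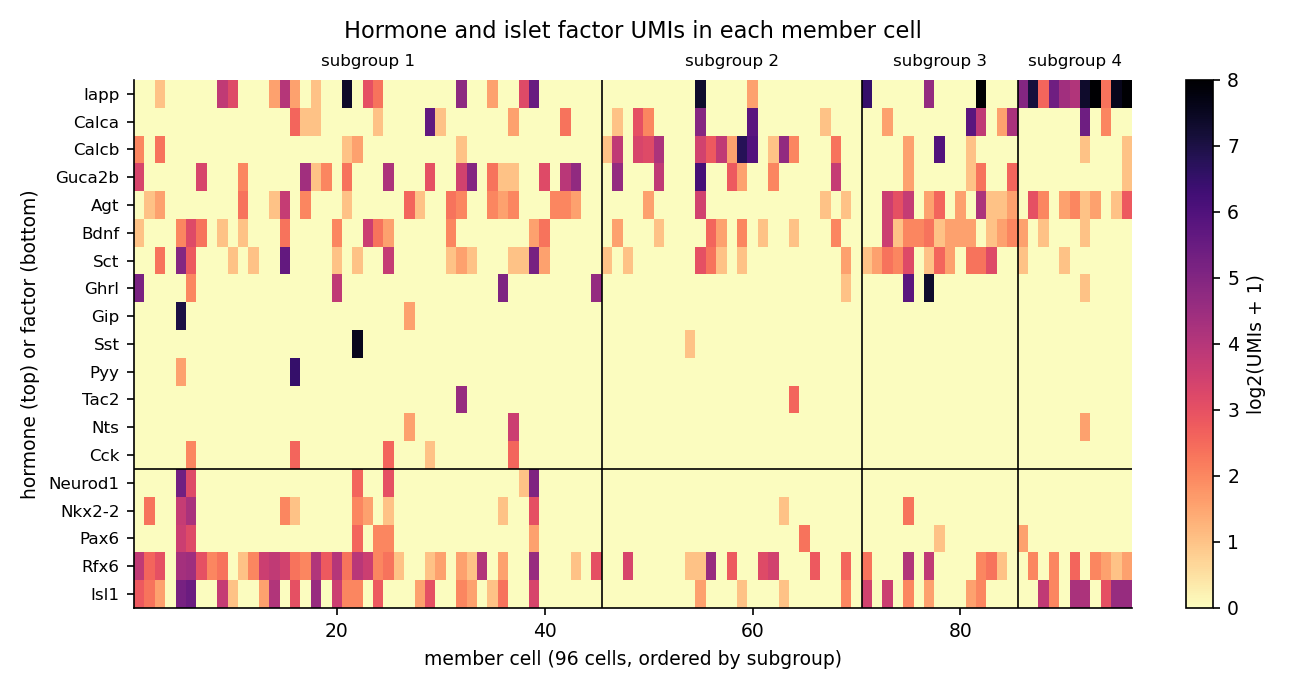
UMIs per cell, as log2(UMIs + 1) in colour, of 14 hormones (upper rows) and 5 endocrine factors (lower rows) in each of the 96 members, ordered by subgroup. Iapp fills subgroup 4, Calcb is frequent in subgroup 2, and Gip, Sst and Pyy are each high in 1 cell of subgroup 1.

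Clustering of the members alone gave 4 subgroups, which are descriptions of the same cells and were not tested. Subgroup 1, of 45 cells, was led by Igha, Igkc, Cpe, Nmnat3 and Syt13. Its immunoglobulin transcripts came mainly from the plasma-type cell described above. Its leading genes also included the neuroendocrine genes Cpe, Scg3 and Chgb, among others that are not neuroendocrine. Chga was 1622 CPM in this subgroup, 951 CPM in subgroup 2, 372 CPM in subgroup 3 and 658 CPM in subgroup 4. Elavl4 was 247, 61.2, 69.5 and 166 CPM in the same order. Subgroup 1 thus held the highest levels of both.

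Subgroup 2, of 25 cells, was led by Lyz2, Ccl19, H2-Ea, Pglyrp1 and Reg3g, genes of innate defence and of antigen presentation. H2-Ea stood at 1304 CPM in it and 92.7 CPM in other members. A UMI of H2-Ea was found in 52% of its cells and 40.8% of other members, so the shares differed less than the levels. The part of single cells and of strains in the levels of these leading genes was not tested. Calcb was 504 CPM in subgroup 2 and 42.2 CPM in other members, and Isl1 was 12.6 CPM, the lowest of the 4. Aire, the regulator of peripheral antigen expression in medullary epithelium, was 114 CPM in it and 11.7, 3.5 and 4.5 CPM in subgroups 1, 3 and 4.

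Subgroup 3, of 15 cells, was led by Slit2, Rgs13, Lrmp, Mctp1 and Gnat3, the last being the taste G protein of tuft cells. Each of its cells had at least 8 of 13 tuft markers, 9 of 15 had mixed hashtags, and the median was 35683 UMIs against 18338 to 22027 UMIs in the other subgroups. The part of doublets with tuft cells in this subgroup was not tested.

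Subgroup 4, of 11 cells, was led by Cfap44, Cfap69, Iapp, Pdxk and Gsn. Cfap44 and Cfap69, genes of the cilium, were 148 and 89.5 CPM there, against 4.18 and 0.928 CPM in other members. All 11 had Iapp, at 5237 CPM, against 444 CPM in other members. Isl1 was 466 CPM and Cdx2, an intestinal factor found in 10 of the 11, was 134 CPM, both the highest of the 4. By mouse, 7 of the 11 came from B6 mouse 2, 1 from NOD mouse 2 and 3 had no strain. Neither BALB/c mouse nor B6 mouse 1 had a cell in it, so B6 mouse 2 largely made up its cells with a strain.

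The share of members among passing cells with a strain was lower in each NOD and BALB/c mouse than in either B6 mouse. It was 0.833% (1 of 120 cells, exact Clopper-Pearson 95% interval 0.0211 to 4.56) and 2.46% (3 of 122, 0.510 to 7.02) in the NOD mice. It was 2.43% (10 of 412, 1.17 to 4.42) and 1.51% (9 of 595, 0.694 to 2.85) in the BALB/c mice, and 9.30% (20 of 215, 5.78 to 14.0) and 13.3% (32 of 241, 9.26 to 18.2) in the B6 mice. All 4 NOD and BALB/c mice lay below both B6 mice, whereas the NOD and BALB/c values overlapped. These intervals cover counting error only.

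The share averaged 1.65% ± 1.15 in NOD mice, 1.97% ± 0.647 in BALB/c mice and 11.3% ± 2.81 in B6 mice (SD, n = 2 each). An exact permutation test of the 6 mice over the 3 strains gave a two-sided p of 0.2, where the smallest possible is 0.0667. BALB/c was 9.32 percentage points below B6 and NOD 9.64 points below B6, each with an exact two-sided p of 0.333, the smallest that 2 against 2 mice allow. NOD was 0.324 points below BALB/c (exact two-sided p of 1). The design cannot reach 0.05, and since shares of sorted cells sum to a whole, a low share of members and a high share of other cells cannot be told apart. Thinned to equal depth, the share averaged 1.85% in NOD, 1.28% in BALB/c and 9.47% in B6 mice, without members that carried tuft markers 1.65%, 1.76% and 9.97%, and without the plasma-type cell 1.65%, 1.89% and 11.3%.

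**Figure D4:**
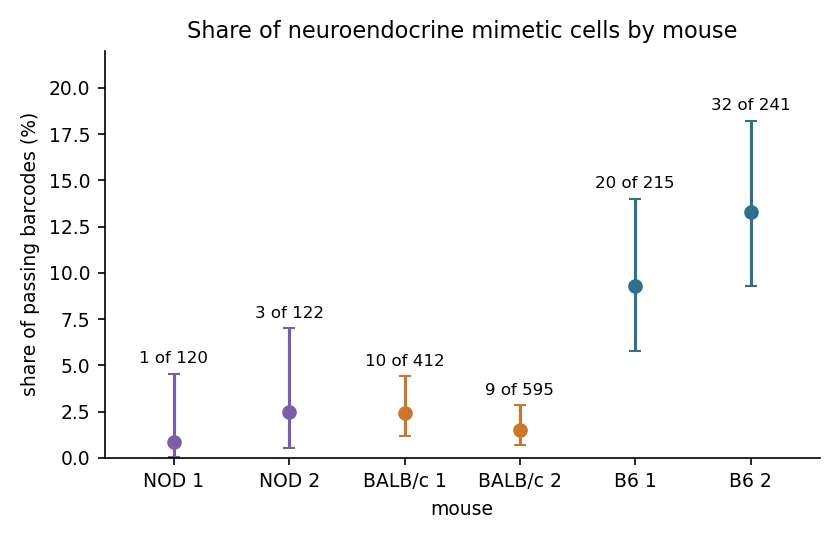
Members as a percentage of passing cells of each mouse (points) with exact 95% binomial intervals (bars); numbers give members of passing cells. The NOD and BALB/c mice lie between 0.833% and 2.46%, below both B6 mice at 9.30% and 13.3%.

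Gene expression within members was compared between BALB/c and B6 mice on UMIs summed per mouse, to ask whether the cells also differ in what they express. NOD mouse 2 was also in the fit. As the only NOD mouse there, it added nothing to the estimate of spread. That estimate had 2 residual degrees of freedom. NOD was not tested because NOD mouse 1 had 1 member. The strains' members fell differently into the subgroups: BALB/c mice 1 and 2 had 6 and 7 cells in subgroup 1, 3 and 1 in subgroup 2, 1 and 1 in subgroup 3 and none in subgroup 4, and B6 mice 1 and 2 had 9 and 14, 9 and 9, 2 and 2, and 0 and 7. The part of this make-up in the strain differences was not tested. Of 7587 genes tested, 2 were higher in BALB/c (0.0264%) and 1 was lower (0.0132%) at an adjusted p under 0.05 by edgeR's quasi-likelihood test, 0.0395% in all, and 717 genes had an unadjusted p under 0.05. The 2 that rose are pseudogenes and the 1 that fell is a secreted airway protein, so no granin, convertase, exocytosis, channel or hormone gene passed the test.

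Tmem181c-ps lies on the minus strand of chr17:6613753-6639790 (mm10) and is annotated as an unprocessed pseudogene. Members had 105 and 97 UMIs of it in BALB/c mice, against 0 UMIs in each NOD and each B6 mouse. It was found in all 19 BALB/c members and in none of the 52 B6 members. Taken against a floor of 3 UMIs over both B6 mice, it was at least 160-fold higher in BALB/c (edgeR adjusted p = 0.0194). Other epithelial cells had it as well, at 283 and 204 CPM in BALB/c mice and 2.59 and 0 CPM in B6 mice, and the members' strain difference did not pass a test against theirs (adjusted p = 0.619, edgeR). Gm10039, a processed pseudogene on chromosome 11, had 1 and 15 UMIs in NOD members and 38 and 31 UMIs in BALB/c members, against 0 UMIs in each B6 mouse. Its level was at least 54.7-fold higher in BALB/c than in B6 (edgeR adjusted p = 0.0430), and NOD members also held it. Other epithelial cells had 217 and 189 CPM in NOD mice, 148 and 166 CPM in BALB/c mice and 2.96 and 1.64 CPM in B6 mice, and the members' strain difference did not pass a test against theirs (adjusted p = 0.584, edgeR). Both pseudogenes may share reads with near-identical copies, so the locus of these UMIs is uncertain.

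Bpifa1, a protein that airway epithelium secretes, had 0 UMIs in members of each NOD and each BALB/c mouse, against 143 and 277 UMIs in B6 members. It was at least 58.8-fold higher in B6 than in BALB/c (edgeR adjusted p = 0.0430). The B6 UMIs were in 9 of 52 members, and 3 cells held 93.3% of them. In other epithelial cells Bpifa1 was 93.9 and 172 CPM in BALB/c mice and 389 and 115 CPM in B6 mice, which overlapped. All 3 calls were lost when either B6 mouse was left out (edgeR adjusted p between 0.101 and 0.197) and when the 3 members with a strain and a Ptprc UMI were dropped (0.116 to 0.160). In this second repeat the log2 fold changes were 10.15 for Tmem181c-ps, -9.88 for Bpifa1 and 8.42 for Gm10039, against 10.19, -9.91 and 8.64 with those members. Each gene had 0 UMIs in B6 or in BALB/c members, so the counts do not fix the size of these values. With a stricter hashtag margin of 90%, at which NOD mouse 2 had 0 members and left the fit, Bpifa1 had a log2 fold change of -9.26 (SE 2.82, edgeR adjusted p = 0.543).

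Among the next genes by p, none passed 0.05 in the main fit. Tff3, trefoil factor 3 of mucous cells, had 14 and 6 UMIs in BALB/c mice and 568 and 627 in B6 mice (log2 fold change -4.61, SE 0.454, edgeR adjusted p = 0.0543), with 85.0% of the B6 UMIs in 3 cells. Spock3, a secreted proteoglycan, was 798 and 1162 CPM in the NOD mice, 232 and 149 CPM in the BALB/c mice and 1032 and 1149 CPM in the B6 mice (log2 fold change for BALB/c over B6 -2.48, SE 0.288, adjusted p = 0.0714, edgeR). It was in 9 of 19 BALB/c members and 47 of 52 B6 members. Nxph1, a neurexin ligand of synapses, was 0 and 88.0 CPM in the NOD mice, 39.4 and 35.4 CPM in the BALB/c mice and 288 and 276 CPM in the B6 mice (log2 fold change -2.87, SE 0.310, adjusted p = 0.0543, edgeR). Lyz2, lysozyme, a leading gene of subgroup 2, had a log2 fold change of -3.65 (SE 0.435, adjusted p = 0.0798, edgeR) and Negr1, a neuronal adhesion protein, one of 2.51 (SE 0.333, adjusted p = 0.113, edgeR). The last genes of the 10, the processed pseudogene Gm15772 and the antisense transcript Gm47938, had log2 fold changes of 8.06 and -4.11 at adjusted p of 0.0543 and 0.0798 (edgeR).

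**Figure D5:**
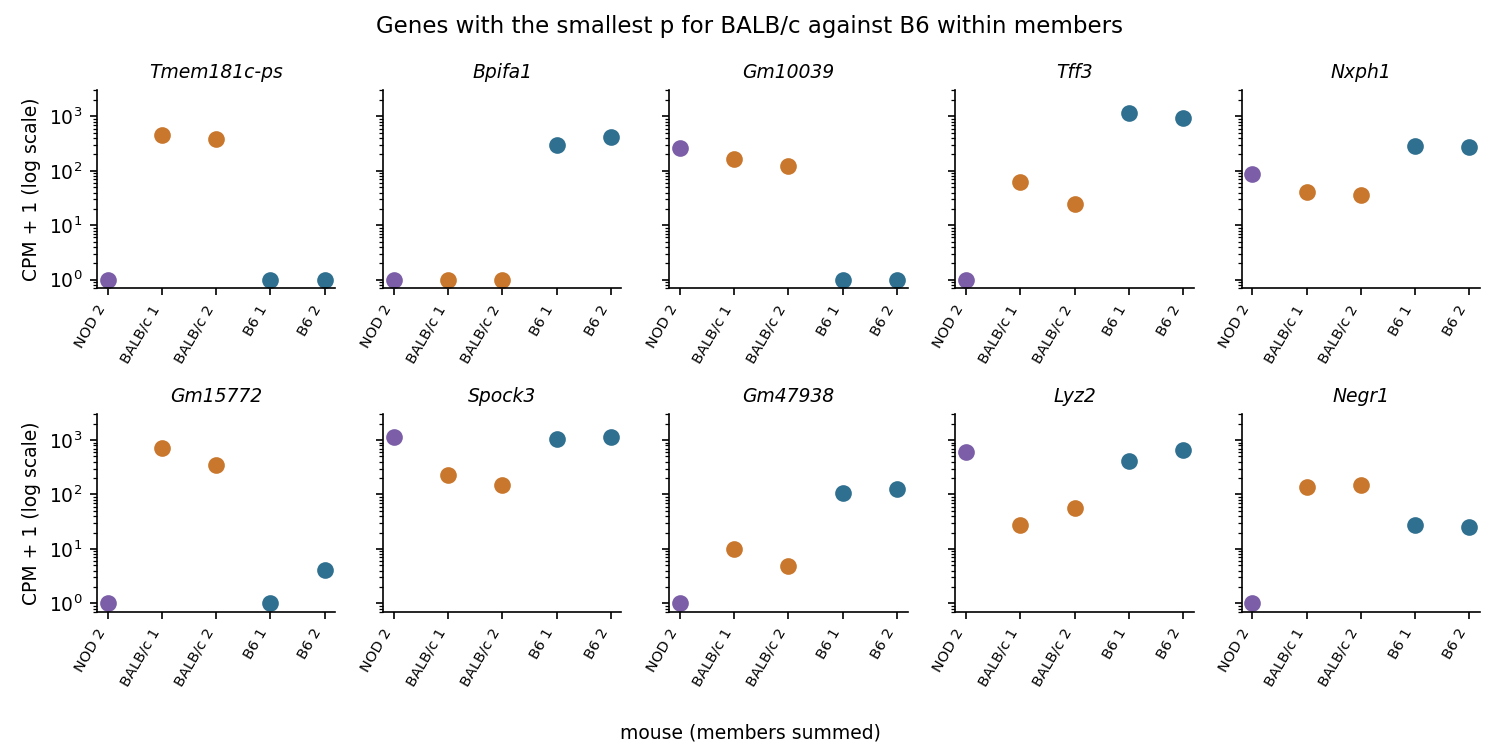
Level in CPM + 1 (log scale) of the 10 genes with the smallest p for BALB/c against B6, with the members of each mouse summed to 1 point (NOD 2 purple, BALB/c orange, B6 blue). In each panel the 2 BALB/c points lie apart from the 2 B6 points; Tmem181c-ps, Bpifa1 and Gm10039 passed the adjusted threshold.

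The neuroendocrine lists showed no called strain difference. Over all 7587 genes the median log2 fold change of BALB/c over B6 was 0.02 and 51.1% were positive. The median was 0.22 over 9 granin and granule genes (5 positive), -0.20 over 30 exocytosis genes (11 positive), -0.22 over 8 processing genes (2 positive), 0.30 over 24 channel genes (13 positive) and -0.28 over 27 transcription factors (10 positive). Here the granin, exocytosis and transcription factor lists include the selection genes that belong to them. Of the 11 granin and granule genes listed, only 6 are outside the selection genes, so that median rests in large part on genes that chose the cells. The 10 selection genes by themselves had a median of -0.38.

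Interferon-stimulated genes were positive in 24 of 26, with a median log2 fold change of 1.05 and none called. Their summed level in members was 1895 and 3926 CPM in NOD mice, 4056 and 2917 CPM in BALB/c mice and 1282 and 1703 CPM in B6 mice, so both BALB/c mice lay above both B6 mice. A single cell held 58.3% and 52.8% of these UMIs in the BALB/c mice, and the median member had 1763 and 1362 CPM in BALB/c mice and 1025 and 965 CPM in B6 mice. In other epithelial cells the sums were 7560 and 8239 CPM in NOD mice, 6992 and 7241 CPM in BALB/c mice and 2606 and 2987 CPM in B6 mice, apart in the same direction.

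Markers of secretory and microfold cells ran the other way. Of 8 secretory genes all had negative values, with a median log2 fold change of -4.38 and 1 called lower (Bpifa1), and of 9 microfold genes all were negative, with a median of -4.51 and none called. Summed secretory markers were 399 and 299 CPM in members of NOD mice, 394 and 287 CPM in BALB/c mice and 3940 and 1797 CPM in B6 mice, and a single cell held 59.99% and 46.9% of these UMIs in the B6 mice. The sums in other epithelial cells were 746 and 574 CPM in NOD mice, 647 and 640 CPM in BALB/c mice and 1608 and 1379 CPM in B6 mice. Summed microfold markers were 798 and 475 CPM in members of NOD mice, 740 and 421 CPM in BALB/c mice and 3451 and 2120 CPM in B6 mice, and a single cell held 51.1% and 24.9% of these UMIs in the B6 mice. Those of other epithelial cells were 1269 and 1058 CPM in NOD mice, 1108 and 1243 CPM in BALB/c mice and 4365 and 5330 CPM in B6 mice, apart in the same direction. Cell-cycle genes were positive in 10 of 10, but the plasma-type cell held 94.5% of the cell-cycle UMIs of BALB/c mouse 2. Summed tuft markers were 499 and 211 CPM in members of NOD mice, 2223 and 1376 CPM in BALB/c mice and 1593 and 746 CPM in B6 mice, and 1 cell held 88.6% and 90.6% of them in the BALB/c mice. The part of these cells in the gene-wise differences was not tested beyond the repeats that left out tuft-marked members or the plasma-type cell.

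Whether the BALB/c to B6 difference was itself different in members and in other epithelial cells was tested as an interaction with the mouse as a block. Of 13692 genes, 2 passed (0.0146%), and 1108 had an unadjusted p under 0.05 (edgeR). AW112010, a long noncoding RNA gene on chromosome 19 that is induced by interferon in mouse leukocytes, was 4489 and 1672 CPM in members of NOD mice, 1912 and 1128 CPM in BALB/c mice and 1728 and 1130 CPM in B6 mice. In other epithelial cells it was 125 and 32.8 CPM in NOD mice, 132 and 120 CPM in BALB/c mice and 1681 and 1237 CPM in B6 mice. Members of all strains overlapped, while other epithelial cells of NOD and BALB/c mice lay far below those of B6 mice. The interaction was 3.64 on the log2 scale (SE 0.300, edgeR adjusted p = 0.0196).

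Lgals2, galectin 2, a sugar-binding protein of gut epithelium, was 99.8 and 106 CPM in members of NOD mice, 298 and 366 CPM in BALB/c mice and 89.95 and 170 CPM in B6 mice. In other epithelial cells it was 12.7 and 7.5 CPM in NOD mice, 1.2 and 1.0 CPM in BALB/c mice and 5.9 and 14.3 CPM in B6 mice. BALB/c thus lay above B6 in members and below it in other epithelial cells, with an interaction of 4.51 on the log2 scale (SE 0.433, edgeR adjusted p = 0.0319). Of the BALB/c member UMIs of Lgals2, 3 cells held 88.2%. Neither gene passed when tuft-like cells replaced all other epithelial cells: the interaction was 4.19 for AW112010 (SE 2.74, edgeR adjusted p = 0.783) and 4.23 for Lgals2 (SE 1.22, edgeR adjusted p = 0.413). Without the plasma-type cell AW112010 was at 3.38 (SE 0.462, edgeR adjusted p = 0.0556) and Lgals2 at 4.66 (SE 0.470, edgeR adjusted p = 0.0168), and without tuft-marked members both passed.

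NOD members numbered 4 and are given as values. NOD mouse 1's member had 5 selection genes and 10025 UMIs, and the 3 members of NOD mouse 2 had a median of 8 selection genes. Summed over the selection genes, NOD members had 9277 and 8731 CPM, BALB/c members 8375 and 3833 CPM, and B6 members 6284 and 8834 CPM, so the level overlapped between strains. Iapp was 0 and 2412 CPM in the NOD mice, 17.5 and 236 CPM in the BALB/c mice, and 883 and 1779 CPM in the B6 mice, so the NOD mice were the lowest and the highest. A single cell held all 137 Iapp UMIs of NOD mouse 2, and in B6 mouse 1 a single member with 12 tuft markers held 385 of 432.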

How the data were processed

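The authors deposited 1 matrix of UMI counts per gene and cell barcode, with hashtag counts, made with Cell Ranger 7.0.0 on mm10, per the submitters' processing notes; the annotation release is not given in the sources used here. The matrix also held 9 hashtags of other pools, which were not used. Gene coordinates are from GENCODE M21, matched by ID for 35 of 36 genes. Some genes are not reported here.

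Barcodes with at least 500 genes and under 15% mitochondrial UMIs passed. A barcode had a mouse when 1 of the 6 hashtags of the pool held at least 80% of their UMIs and their sum was at least 100. No doublet caller was run; barcodes with mixed hashtags entered no strain comparison. Counts of members were summed per mouse (at least 3 members) and tested with edgeR 4.0.16 (TMM, filterByExpr, robust quasi-likelihood fit, Benjamini-Hochberg over all genes tested, threshold 0.05) in R 4.3.3. DESeq2 1.42.0, other filters and thresholds, and leaving out each mouse were alternatives. Subgroups came from Leiden clustering in scanpy 1.11.5. The edgeR step was tested on simulated data. For detection shares, cells were thinned to 4000 UMIs.

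Named genes were the 10 selection genes, up to 8 per list found in at least 10% of members, the 20 leading genes, called genes (or, under 5 calls, the 10 smallest p) and 5 leading genes per subgroup; others named for their role, such as Gip, Sst, Pyy, Aire and Cdx2, were chosen after their values were seen. Members and gene lists were chosen with earlier results of these data known.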

Additional observations from a re-analysis of the deposited data

Results flagged for a closer look

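A strain difference that itself differed between cell classes was found for 2 genes, by the test of the interaction. The BALB/c to B6 difference of AW112010 was 3.64 higher on the log2 scale in members than in other epithelial cells, and that of Lgals2 was 4.51 higher. For AW112010 the members of both strains lay between 1128 and 1912 CPM, while other epithelial cells had 132 and 120 CPM in BALB/c mice and 1681 and 1237 CPM in B6 mice. For Lgals2 the members had 298 and 366 CPM in BALB/c mice and 89.95 and 170 CPM in B6 mice. With 1 BALB/c or B6 mouse left out, the interaction was 3.29 to 3.94 for AW112010 and 4.15 to 4.74 for Lgals2. Such fits leave 1 mouse in a strain, so only their values are given. Both genes passed without TMM, without tuft-marked members and with no filter on low counts. The fit with no filter called 344 genes, against 2 in the main fit. Lgals2 also passed without the plasma-type cell. Neither passed with tuft-like cells as the other class, and AW112010 did not pass without the plasma-type cell (3.38, edgeR adjusted p = 0.0556).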

How the results depend on the processing

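The count of genes called between BALB/c and B6 members was 3, and it was unstable. With DESeq2 it was 22, of which 1 (Tmem181c-ps) was shared with the 3, and DESeq2 gave Bpifa1 and Gm10039 no adjusted p. It was 472 with no filter on low counts and 6 without NOD in the fit. A minimum of 5 cells per mouse removed the same NOD mouse and gave that same fit. It was 9 with at least 6 selection genes, 7 with a hashtag margin of 90%, where NOD mouse 2 had no member left and was out of the fit, and 0 without members that had a Ptprc UMI. Leaving out 1 mouse gave 0 to 229 calls, the highest without a BALB/c mouse (201 and 229) and the lowest without a B6 mouse (0 and 1); the cause was not tested, and the lone mouse of a strain is then assumed to vary like the others. With the replicate block it was 0. The numbers only name the mice (correlation of deviations -0.05 for same numbers and 0.05 for unlike numbers). The block also takes up residual degrees of freedom, so this repeat cannot show whether the effect is weaker. Repeats chosen after seeing the data gave 5 calls without tuft-marked members and 7 without the plasma-type cell. Of 193 repeats for single genes, 130 kept direction and side of the threshold, 17 lost the call, 46 gained it and none reversed. These repeats are not all separate checks. The fits without NOD mouse 2, without NOD and with at least 5 cells per mouse were identical, and each was counted. A limit of 10% mitochondrial UMIs removed no member with a strain, so it repeated the main fit.

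The interaction count of 2 was 344 with no filter, 7 against tuft-like cells, 31 to 572 without 1 mouse, and, chosen after seeing the data, 8 without tuft-marked members and 2 without the plasma-type cell. The share of members kept B6 above NOD and BALB/c in every repeat run. NOD minus BALB/c, -0.324 points, turned positive with at least 4 selection genes (0.393), with thinning (0.565), and without NOD mouse 1 (0.489) or BALB/c mouse 1 (0.134), over a range of -1.14 to 0.489 when 1 mouse was left out. The planned NOD comparisons of expression were not run, because NOD mouse 1 had 1 member. Few members, 19 in BALB/c and 52 in B6, limit all strain results.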
